A study of Homo sapiens with 29 samples.

Results

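CRYAB and 9 heat shock protein genes were followed through oncogene-induced senescence and through knockdown of SMARCA4 in human lung fibroblasts. The 10 genes were chosen by name from the 28266 gene symbols of the count table. They are the small heat shock proteins CRYAB, HSPB1, HSPB6, HSPB7 and HSPB8, the HSP70 chaperones HSPA1A, HSPA1B and HSPA8, the HSP110 protein HSPH1 and the HSP40 co-chaperone DNAJB1. RNA was sequenced from IMR90 ER:RAS cells, a fibroblast line infected with a retrovirus that carries RASG12V fused to the estrogen receptor, so that 4-hydroxytamoxifen (4OHT) switches RAS on. Per the labels, cells of every group carried the fusion, were reverse transfected with siRNA 1 day before induction and were collected 7 days after it. DMSO_siNT held growing cells given the solvent DMSO and non-targeting siRNA, 4OHT_siNT held senescent cells given 4OHT and non-targeting siRNA, and in 4OHT_siSMARCA4 the cells given 4OHT received siRNA against SMARCA4 (BRG1), an ATPase of SWI/SNF chromatin remodellers. Each group had 6 libraries, 3 with the siRNA numbered 2 and 3 with the siRNA numbered 4, and no source states whether the line is 1 clone or whether the libraries came from separate cultures.

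Heat shock proteins are chaperones that bind unfolded proteins. Small heat shock proteins such as alphaB-crystallin, the product of CRYAB, hold unfolding proteins in a soluble state without using ATP. HSP70 proteins then refold these clients in cycles of ATP hydrolysis, in which HSP40 proteins deliver the client and HSP110 proteins exchange the nucleotide. HSPA8 is made constitutively, while HSPA1A, HSPA1B, HSPH1, DNAJB1 and HSPB1 are classic targets of heat shock factor 1, which binds repeats of an inverted GAA unit in their promoters. HSPB6, HSPB7 and HSPB8 are known best from muscle, and CRYAB from the eye lens and muscle, although fibroblasts can express them.

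Promoters are shown because the heat shock element defines the response for which these genes are named. The windows below come from RefSeq on GRCh38.p14, run 5′ to 3′ on the strand of the gene, and carry in capitals every match to 2 facing units of the heat shock element, written GAANNTTC or TTCNNGAA. Both forms read the same on both strands, and overlapping matches run together.
HSPA1A, chr6:31815393-31815542, plus strand: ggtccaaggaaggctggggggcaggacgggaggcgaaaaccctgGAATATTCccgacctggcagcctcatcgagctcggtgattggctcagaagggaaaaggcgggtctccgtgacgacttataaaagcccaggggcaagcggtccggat
HSPA1B, chr6:31827588-31827737, plus strand: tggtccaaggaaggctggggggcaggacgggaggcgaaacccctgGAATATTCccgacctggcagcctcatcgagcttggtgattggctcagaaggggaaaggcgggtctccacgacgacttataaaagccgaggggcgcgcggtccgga
HSPB1, chr7:76302473-76302572, plus strand: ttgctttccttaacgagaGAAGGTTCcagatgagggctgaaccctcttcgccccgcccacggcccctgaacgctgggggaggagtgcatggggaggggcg
HSPB6, chr19:35757130-35757249, minus strand: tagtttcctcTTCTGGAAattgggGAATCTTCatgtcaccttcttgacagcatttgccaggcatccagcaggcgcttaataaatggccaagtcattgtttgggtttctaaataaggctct
DNAJB1, chr19:14518418-14518517, minus strand: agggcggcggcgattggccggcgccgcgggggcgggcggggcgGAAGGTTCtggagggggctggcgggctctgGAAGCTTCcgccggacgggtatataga
HSPA8, chr11:123062347-123062376, minus strand: gggcgagcttGAAAGTTCCAGAAcgctgcg
HSPA8, chr11:123062167-123062196, minus strand: gccccTTCTGGAAGGTTCtaagatagggta

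In the full windows, from 250 bases before to 50 bases after each start site, GAANNTTC occurred in 6.77% and TTCNNGAA in 7.74% of 35116 promoters, and 13.5% held either. HSPA8 also held 2 stretches of 3 alternating units, a longer form that 0.49% of the promoters held on either strand. HSPB8 had 2 matches to GAANNTTC, and HSPB7 and HSPH1 had no match in these windows. CRYAB had no entry among these promoters, so it was not searched. The windows of HSPA1A and HSPA1B were identical at 141 of 151 aligned columns, or 93.4%. DNAJB1 had 3 annotated starts, of which the one with 2 matches is shown. The gene bodies lie in GENCODE v44 on GRCh38 at chr11:111908564-111923722 for CRYAB, chr7:76302673-76304295 for HSPB1, chr19:35754566-35758079 for HSPB6, chr1:16014028-16019594 for HSPB7, chr12:119171555-119224855 for HSPB8, chr6:31815543-31817946 for HSPA1A, chr6:31827738-31830254 for HSPA1B, chr13:31134973-31162388 for HSPH1, chr19:14514769-14560391 for DNAJB1 and chr11:123057489-123063230 for HSPA8. HSPB2, another small heat shock protein gene, overlaps CRYAB on the opposite strand. Values of HSPA1A and HSPA1B are uncertain, since reads from these near-identical neighbours can be split between them, and so are those of CRYAB, HSPB6, HSPB7, HSPB8, DNAJB1 and HSPA8, because whether the counting used strand is not stated and annotated genes overlap them on the other strand.

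Total counts per library ranged from 9657309 to 18039313, and the deposited values were raw counts. SMARCA4 itself measured 301 ± 20.9 CPM, counts per 1000000 counts of the scaled library, in 4OHT_siNT and 99.03 ± 27.6 CPM in 4OHT_siSMARCA4 (mean ± SD, n = 6 each), a log2 difference of -1.61 ± 0.14 (SE), with no overlap of the groups. All 8 fibroblast markers examined had over 3 counts in every group. Of the 4 epithelial markers, CDH1, KRT5 and KRT14 had at most 3 counts in every library and EPCAM had at most 19, of the 6 striated muscle markers only DES exceeded 3 counts, with at most 21, and of the 3 immune markers CD3E had at most 3, PTPRC at most 4 and CD14 at most 7. The 3 endothelial markers reached 5 counts for CDH5, 14 for PECAM1 and 85 for VWF, and their summed level ranged from 1.21 to 2.27 CPM in DMSO_siNT, from 3.92 to 5.12 CPM in 4OHT_siNT and from 1.21 to 5.69 CPM in 4OHT_siSMARCA4. VWF was called higher with senescence, by 1.23 ± 0.28 on the log2 scale (adjusted p 0.00121, edgeR). The summed fibroblast markers ranged from 7419 to 24723 CPM in DMSO_siNT, from 8846 to 12417 CPM in 4OHT_siNT and from 2229 to 5309.7 CPM in 4OHT_siSMARCA4. COL1A1 and COL1A2 led these sums, with means of 10692 and 6623 CPM in DMSO_siNT. Single markers moved differently. Mean DCN was 625 CPM in DMSO_siNT and 17.4 CPM in 4OHT_siNT. FAP, at 81.9 and 117 CPM, was the only fibroblast marker with a higher mean in 4OHT_siNT. The part of these markers in the results was not tested.

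The libraries were not balanced over the set names of the labels, each of which is a number followed by V or VM, 2 codes with no stated meaning. The 6 libraries of 4OHT_siNT were all VM. In DMSO_siNT 3 were V and 3 VM. In 4OHT_siSMARCA4 3 were V and 2 VM, and the sixth library, whose column in the count table is named as siRNA 2 and set 1VM, matched no sample label, so it is called the unlabelled library and was counted as VM only where stated. The library DMSO_siNT 4-2V (siRNA 4, set 2V) stood apart. The estrogen receptor gene ESR1 and the RAS gene HRAS, with which the fusion shares sequence, were at 29.5 and 436 CPM in it, against 1034 to 1316 CPM and 2165 to 2852 CPM in the other 5 DMSO_siNT libraries. The label says that its cells carried the fusion like the rest, and whether they did was not tested. Other genes departed in it too, such as COL1A1 at 3155 CPM against a group median of 11637 CPM and HSPE1 at 276 against 46.1 CPM. Its total count was the lowest of all libraries. Why this library stood apart was not tested. It also had the highest HSPB1, HSPA1A and HSPA1B and the lowest HSPB6, HSPB7, HSPB8, DNAJB1 and HSPA8 of its group. Its values are kept, and several results that rest on it are given without it too.

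In growing cells the levels of the 10 genes differed widely when compared per kilobase of transcript. HSPB1 had 1060 ± 632 CPM per kilobase (SD, n = 6) and HSPA8, the constitutive HSP70, had 777 ± 183. These 2 neighbours in the order did not differ beyond their spread. DMSO_siNT 4-2V had 2309 for HSPB1 and 449 for HSPA8, and their order rests on it. The other libraries of the group ranged from 707 to 1121 for HSPB1 and from 724 to 938 for HSPA8. HSPB6 followed with 250.3 ± 61.4, then DNAJB1 with 73.6 ± 17.6, HSPH1 with 41.7 ± 2.54 and HSPB8 with 27.6 ± 7.59 CPM per kilobase. CRYAB, HSPA1A and HSPA1B formed a group at 13.9 ± 4.16, 13.2 ± 4.16 and 13.1 ± 6.57, which did not differ beyond their spread, and HSPB7 was lowest at 0.938 ± 0.606 CPM per kilobase. In senescent cells HSPA8 led with 1064 ± 40.1 CPM per kilobase, and HSPB1 followed with 369 ± 43.3.

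**Figure D1:**
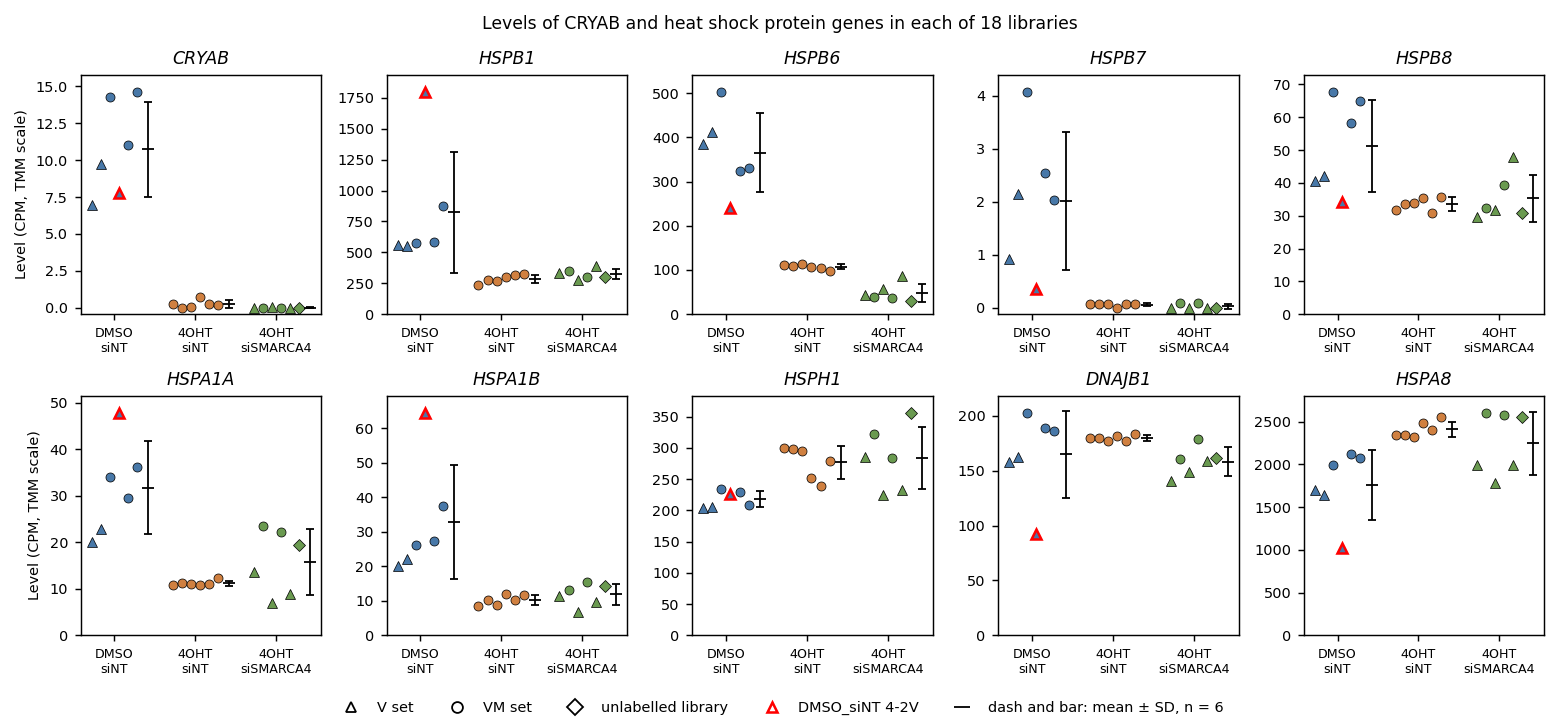
Each panel plots the level of 1 gene in CPM, scaled by the TMM method, in the 18 libraries, with V sets as triangles, VM sets as circles, the unlabelled library as a diamond, DMSO_siNT 4-2V outlined in red, and a dash with a bar for the mean ± SD of the 6 libraries of a group. CRYAB lies at 6.98 CPM or more in every DMSO_siNT library and at 0.742 CPM or less in every library given 4OHT, while HSPA8 is higher in all 6 4OHT_siNT libraries than in any DMSO_siNT library.

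The first comparison, 4OHT_siNT against DMSO_siNT, asked how senescence changed these genes. Of the 9 genes with enough counts to be tested across all groups, 6 fell, 2 rose and 1 was not called at an adjusted p under 0.05 in the quasi-likelihood test of edgeR. CRYAB, HSPB1, HSPB6, HSPB8, HSPA1A and HSPA1B fell, HSPH1 and HSPA8 rose, and DNAJB1 was not called. Over all 13136 genes tested, 52.8% were called, 23.9% higher and 28.9% lower. The median log2 fold change of the 9 genes was -1.496, and that of all genes tested was -0.05. In these bulk libraries, fewer cells that express a gene and less RNA per cell cannot be told apart.

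CRYAB was nearly lost. DMSO_siNT libraries had 65 to 201 counts of it, at 6.98 CPM in the lowest, 10.4 CPM at the median and 14.6 CPM in the highest library. The 6 4OHT_siNT libraries had 3, 0, 1, 10, 4 and 2 counts, the 10 counts being those of library 4-1VM. All senescent libraries therefore lay far below all growing ones, and the log2 fold change was -5.42 ± 0.41 (SE), with an adjusted p of 2e-09 in the edgeR test. As a ratio of summed counts per library size, 830 against 20 counts, CRYAB was 45.3-fold lower, with an exact 95% interval of 29.2 to 74.6 that covers counting error only.

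HSPB6, a small heat shock protein also called HSP20, fell next most by the fit. It ranged from 239 to 502 CPM in DMSO_siNT with a median of 358 CPM, and from 97.7 to 114 CPM in 4OHT_siNT with a median of 108 CPM. The groups did not overlap even though DMSO_siNT 4-2V was the lowest growing library, and the log2 fold change was -1.77 ± 0.21 with an adjusted p of 1.07e-06 in edgeR. HSPB1, also called HSP27, ranged from 549 to 1794 CPM with a median of 581 CPM in DMSO_siNT and from 234 to 324 CPM with a median of 291 CPM in 4OHT_siNT. Its highest growing library, DMSO_siNT 4-2V, stood well above the next at 871 CPM, yet every growing library exceeded every senescent one. The fall of HSPB1 by 1.52 ± 0.24 on the log2 scale became -1.13 without DMSO_siNT 4-2V.

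HSPB8, a partner of the co-chaperone BAG3, fell less, by 0.61 ± 0.16 on the log2 scale, with an adjusted p of 0.00326 in edgeR. It measured 34.1 to 67.6 CPM in DMSO_siNT with a median of 50.2 CPM, and 30.8 to 35.9 CPM in 4OHT_siNT with a median of 33.7 CPM. The groups overlapped, because DMSO_siNT 4-2V at 34.1 CPM lay inside the senescent range, and the other 5 growing libraries, at 40.6 CPM or more, lay above it. HSPB7, known from heart muscle, had too few counts for the test over all groups. Its counts were 13, 26, 57, 3, 34 and 28 in DMSO_siNT, the 3 counts being those of 4-2V, against 5 counts in 4OHT_siNT in all and at most 1 in any library. The ratio of summed counts was 35.2-fold lower in 4OHT_siNT, with an exact 95% interval of 14.8 to 110 for counting error only.

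The inducible HSP70 genes fell together. HSPA1A ranged from 20.1 to 47.7 CPM in DMSO_siNT with a median of 31.8 CPM and from 10.8 to 12.3 CPM in 4OHT_siNT with a median of 11.1 CPM. HSPA1B ranged from 19.95 to 64.3 CPM with a median of 26.7 CPM and from 8.52 to 11.9 CPM with a median of 10.2 CPM in the same groups. Neither gene overlapped between the groups, and the senescent libraries were more alike than the growing ones, where 4-2V was highest for both. The log2 fold change was -1.50 ± 0.26 for HSPA1A (adjusted p 8.53e-05, edgeR) and -1.67 ± 0.25 for HSPA1B (adjusted p 1.57e-05, edgeR), and without DMSO_siNT 4-2V it was -1.34 and -1.37.

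HSPA8 and HSPH1 rose and DNAJB1 was not called. HSPA8 ranged from 1018 to 2123 CPM with a median of 1851 CPM in DMSO_siNT and from 2325 to 2550 CPM with a median of 2373 CPM in 4OHT_siNT, with no overlap. Its rise of 0.45 ± 0.15 on the log2 scale had an adjusted p of 0.0176 in edgeR, and 0.34 with an adjusted p of 0.00962 without DMSO_siNT 4-2V. HSPH1, the nucleotide exchange factor, ranged from 205 to 235 CPM with a median of 217 CPM in DMSO_siNT and from 239 to 300.1 CPM with a median of 288 CPM in 4OHT_siNT. All senescent libraries lay above all growing ones, by 0.34 ± 0.11 on the log2 scale with an adjusted p of 0.0139 in edgeR.

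DNAJB1, the HSP40 partner that hands clients to HSP70, ranged from 92.03 to 202 CPM with a median of 175 CPM in DMSO_siNT and from 177 to 184 CPM with a median of 179.6 CPM in 4OHT_siNT. The narrow senescent range lay within the growing one, and the difference of 0.12 ± 0.14 on the log2 scale did not pass the test (adjusted p 0.455, edgeR). The opposite directions of HSPA1A and HSPA8 stood in libraries of the same cells, at 10.8 to 12.3 CPM and 2325 to 2550 CPM.

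**Figure D2:**
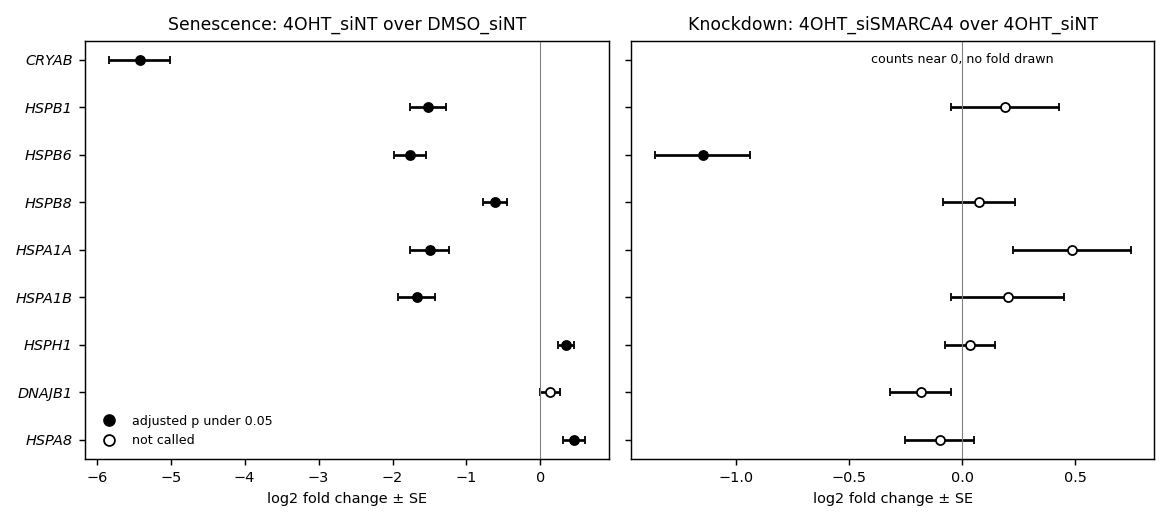
Points give the log2 fold change of each of the 9 tested genes and bars its standard error, for 4OHT_siNT over DMSO_siNT on the left and 4OHT_siSMARCA4 over 4OHT_siNT on the right, which have different horizontal scales, and filled points passed an adjusted p of 0.05. On the left, 6 genes lie below 0 with filled points and HSPH1 and HSPA8 lie above it, and on the right HSPB6 at -1.15 is the only filled point drawn, since CRYAB had too few counts for a fold.

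Because 4OHT_siNT held VM sets alone, the senescence comparison was repeated within VM sets, with 3 DMSO_siNT and 6 4OHT_siNT libraries. HSPB7 had enough counts to be tested there, and 7 of 10 genes fell and 2 rose, against 53.5% of all genes called. CRYAB fell by 5.73, HSPB6 by 1.84, HSPA1A by 1.57, HSPA1B by 1.56, HSPB1 by 1.24 and HSPB8 by 0.92 on the log2 scale, while HSPH1 rose by 0.31 and HSPA8 by 0.22. DNAJB1 was not called, at a log2 difference of -0.10. Without DMSO_siNT 4-2V, with V and VM sets together, 9 of 10 genes were called as well, 2 higher and 7 lower, against 58.3% of all genes. With siRNA 4 alone, where 35.6% of all genes were called, HSPB8 at -0.60, HSPH1 at 0.24 and HSPA8 at 0.54 on the log2 scale were not called, at adjusted p values of 0.0884, 0.263 and 0.166 in edgeR.

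The second comparison, 4OHT_siSMARCA4 against 4OHT_siNT, asked what loss of SMARCA4 changed in senescent cells. Of the 9 genes tested, HSPB6 and CRYAB were called lower and none was called higher, where 10.6% of all 13136 genes were called, 4.99% higher and 5.65% lower. The median log2 fold change of the 9 genes was 0.03, against 0.01 over all genes tested, and it did not change when CRYAB was set to its bound of 3 counts per library.

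HSPB6 fell further from its senescent level. The 4OHT_siSMARCA4 libraries ranged from 29.97 to 86.5 CPM with a median of 40.2 CPM, below the whole 4OHT_siNT range, which began at 97.7 CPM. The highest was 4-3V, and the unlabelled library was lowest. The log2 fold change was -1.15 ± 0.21 with an adjusted p of 0.00173 in edgeR. With siRNA 2 alone, where 25.7% of all genes were called, it was -1.61 (adjusted p 9.44e-06, edgeR). With siRNA 4 alone, where 0.0303% were, it was -0.80 and did not pass the test (adjusted p 0.373, edgeR). The difference between the siRNAs, -0.81 ± 0.32 on the log2 scale, did not pass the test either (adjusted p 0.574, edgeR). In 4OHT_siSMARCA4 the siRNA 4 libraries were 4-2V, 4-3V and 4-2VM. Those of siRNA 2 were 2-3V, 2-3VM and the unlabelled library, so the siRNAs were not balanced over the set letters. Within VM sets, where 21% of all genes were called, HSPB6 fell by 1.54 (adjusted p 1.89e-05, edgeR).

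CRYAB had 1 count in 4OHT_siSMARCA4, in library 4-2V, against the 20 counts of 4OHT_siNT. The call (adjusted p 0.0215, edgeR) therefore rests on 21 counts in 12 libraries, 10 of them in 4OHT_siNT 4-1VM, and without that library the adjusted p was 0.06. It was also lost without 4OHT_siSMARCA4 2-3VM (adjusted p 0.0503) or the unlabelled library (adjusted p 0.0501), with either siRNA alone, and in VM sets alone (adjusted p 0.0985). The ratio of summed counts was 19.2-fold lower, with an exact 95% interval of 3.06 to 794 for counting error only.

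HSPA1A had lower values in V than in VM libraries after knockdown, a difference that did not pass the direct test (adjusted p 0.118, edgeR). Its 3 V libraries of 4OHT_siSMARCA4 had 13.5, 6.84 and 8.82 CPM, its 2 VM libraries had 23.6 and 22.3 CPM, and the unlabelled library had 19.3 CPM. The VM and unlabelled libraries and 1 V library lay above all 6 4OHT_siNT libraries, which ended at 12.3 CPM, and the other 2 V libraries lay below them. Over all sets the log2 fold change of 0.48 ± 0.26 was not called (adjusted p 0.262, edgeR). Within VM sets, where 21% of all genes were called, HSPA1A rose by 1.02 on the log2 scale with an adjusted p of 3.24e-05, in both VM libraries, and by 0.94 with an adjusted p of 6.92e-06 when the unlabelled library was added, where 30.4% of all genes were called.

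HSPA1B, which shares sequence with HSPA1A, had 11.5, 6.84 and 9.73 CPM in the V libraries of 4OHT_siSMARCA4, 13.1 and 15.5 CPM in the VM libraries and 14.2 CPM in the unlabelled library. The last 3 lay above the 4OHT_siNT range, which ended at 11.9 CPM. Its log2 fold change was 0.20 ± 0.25 over all sets (adjusted p 0.683, edgeR), 0.46 within VM sets (adjusted p 0.0708) and 0.46 with the unlabelled library added (adjusted p 0.0255).

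HSPA8 had 1988, 1779.6 and 1992 CPM in the V libraries of 4OHT_siSMARCA4 and 2598, 2576 and 2555 CPM in the VM and unlabelled libraries. The V libraries lay below and the others above the whole 4OHT_siNT range, and the log2 fold change over all sets was -0.10 ± 0.15 (adjusted p 0.741, edgeR). Within VM sets it was 0.09 and did not pass the test either.

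HSPB1 had a median of 319 CPM in 4OHT_siSMARCA4 and ranged from 278 to 392 CPM. HSPB8 ranged from 29.7 to 48.0 CPM with a median of 32.0 CPM, HSPH1 from 225 to 355 CPM with a median of 285 CPM, and DNAJB1 from 141 to 179 CPM with a median of 159.6 CPM. Each of these ranges overlapped that of 4OHT_siNT. Their log2 differences after knockdown were 0.19 for HSPB1, 0.07 for HSPB8, 0.03 for HSPH1 and -0.18 for DNAJB1, none called. In a fit of only the 2 groups, where 26.9% of all genes were called, DNAJB1 was called lower by 0.19 (adjusted p 0.0426, edgeR). With siRNA 2 alone, where 25.7% of all genes were called, HSPB1 was called higher, by 0.34 on the log2 scale (adjusted p 0.0132, edgeR). HSPA1A, by 0.76, and HSPA1B, by 0.49, were called higher there too. With siRNA 4 alone, where 0.0303% were called, HSPB1 was at 0.02, HSPA1A at 0.12 and HSPA1B at -0.12, none called. No difference between the siRNAs in the effect of knockdown passed the test for any of the 10 genes, and 0.0146% of 13659 genes did. At an unadjusted p under 0.05 HSPB6 alone of the 10 passed, as did 995 of the 13659 genes. For the effect of senescence none of the 13659 genes differed between the siRNAs in edgeR (0%), 3258 did at an unadjusted p under 0.05, and none of the 10 was among those.

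**Figure D3:**
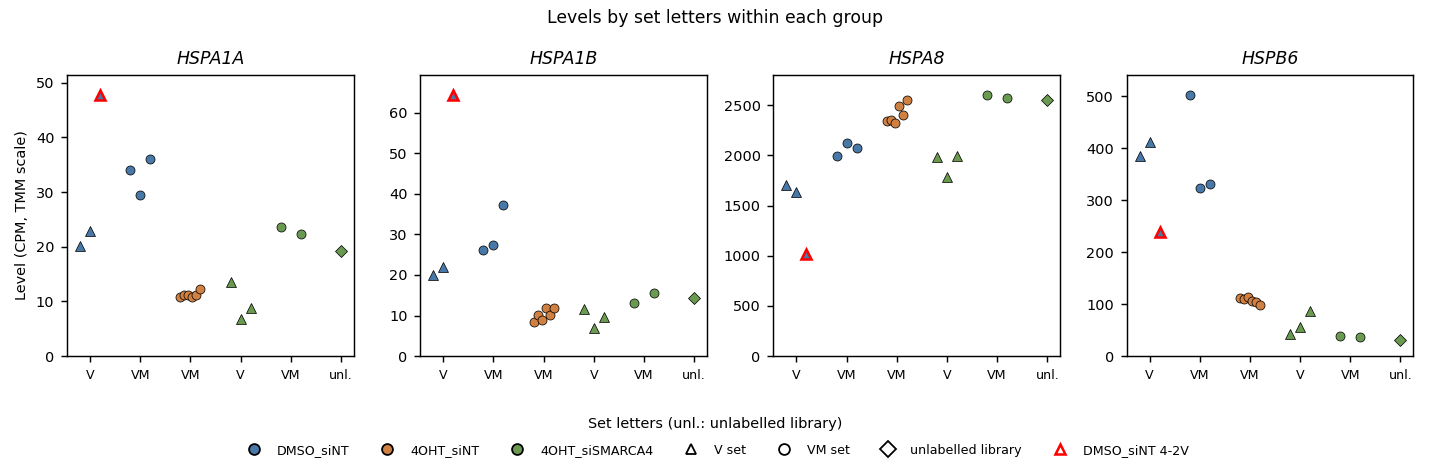
Levels in CPM of 4 genes are plotted for each library, split by group (colour) and by the set letters V and VM, with the unlabelled library on its own and DMSO_siNT 4-2V outlined in red. In 4OHT_siSMARCA4, HSPA1A lies at 6.84 to 13.5 CPM in V sets and at 22.3 and 23.6 CPM in VM sets, HSPA8 is higher in VM than in V sets, and HSPB6 is at 42.5 to 86.5 CPM in V sets and at 36.8 and 37.8 CPM in VM sets.

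The set names were compared directly, VM over V, in a fit of 13887 genes without the unlabelled library. In 4OHT_siSMARCA4, where 0.101% of genes were called, none of the 10 genes passed, and HSPA1A came nearest at 1.25 ± 0.30 on the log2 scale with an unadjusted p of 0.000652 and an adjusted p of 0.118 in edgeR. At an unadjusted p under 0.05, HSPA1A, HSPA8 and HSPB6 passed, as did 1132 of the 13887 genes. For HSPA1A the adjusted p was 0.00432 without DMSO_siNT 4-2V, 0.0234 in DESeq2 and 0.0511 with the unlabelled library counted as VM. HSPB6 was -0.71 ± 0.27 and HSPA8 was 0.44 ± 0.19, with adjusted p values of 0.464 and 0.533 in edgeR. SMARCA4 itself was at 125, 141 and 92.7 CPM in the V libraries and at 87.0 and 70.4 CPM in the VM libraries of this group, and its part in these differences was not tested.

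In DMSO_siNT, where 0.324% of genes were called between the set names, HSPB8 was 0.72 ± 0.16 higher in VM than in V sets on the log2 scale (adjusted p 0.0654, edgeR). Its V libraries had 40.6, 42.2 and 34.1 CPM and its VM libraries 67.6, 58.1 and 65.1 CPM, so they did not overlap. HSPA8 was 0.52 ± 0.17 and DNAJB1 0.50 ± 0.17 higher in VM sets, neither called, and both had their lowest V value in 4-2V. Between siRNA 2 and siRNA 4 in DMSO_siNT, HSPB1 was lower with siRNA 2 by 0.94 ± 0.27 on the log2 scale (adjusted p 0.0625, edgeR) and HSPA1B by 0.92 ± 0.27 (adjusted p 0.0645, edgeR). Neither was called, where 0.0512% of genes were, and without DMSO_siNT 4-2V the values were -0.38 and -0.52. In 4OHT_siNT and in 4OHT_siSMARCA4 none of the 10 genes differed between the siRNAs by the same test, where 0.0732% and 0.00732% of genes were called, and at an unadjusted p under 0.05 CRYAB did in 4OHT_siNT, with 1447 of 13659 genes, and HSPB6 and HSPH1 did in 4OHT_siSMARCA4, with 878 of 13659 genes.

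Set against growing cells, 4OHT_siSMARCA4 had 6 of the 9 tested genes lower and HSPH1 higher, where 50.5% of all genes were called, 23.3% higher and 27.3% lower. This comparison shares libraries with each of the others, so its values are given side by side with theirs and not as support. CRYAB, at 830 counts in DMSO_siNT and 1 in 4OHT_siSMARCA4, gave a ratio of 868 with an exact 95% interval of 155 to 34321 for counting error only. HSPB7, at 161 and 2 counts, gave a ratio of 84.2 with an interval of 22.9 to 701. HSPB6 was lower by 2.92 ± 0.22 on the log2 scale, after a fall of 1.77 with senescence and a further fall of 1.15 with knockdown.

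HSPA1A was lower than in growing cells by 1.01 ± 0.27 and HSPA1B by 1.47 ± 0.25, the first with overlap, since the 2 VM libraries of 4OHT_siSMARCA4 at 22.3 and 23.6 CPM exceeded DMSO_siNT 2-1V at 20.1 CPM. HSPB1 was lower by 1.33 ± 0.24 and HSPB8 by 0.54 ± 0.16, and HSPH1 was higher by 0.38 ± 0.11 on the log2 scale. Without DMSO_siNT 4-2V the differences were -0.87 for HSPA1A, -1.18 for HSPA1B and -0.95 for HSPB1, all still called. HSPA8 at 0.35 ± 0.15 and DNAJB1 at -0.06 ± 0.14 were not called. DNAJB1 was called lower, by 0.19, without DMSO_siNT 4-2V, where 59.1% of all genes were called, and by 0.22 in VM sets with the unlabelled library (adjusted p 0.0318, edgeR), where 49.7% were. HSPA8 was called higher by 0.31 in VM sets alone (adjusted p 0.0239), by 0.30 with the unlabelled library added (adjusted p 0.00937), by 0.42 with siRNA 2 alone (adjusted p 0.0058), by 0.36 in DESeq2 (adjusted p 0.0338) and by 0.41 without 4OHT_siSMARCA4 4-2V, DMSO_siNT 4-2VM or DMSO_siNT 4-3VM. HSPA8 was not called without DMSO_siNT 4-2V, at 0.23 (adjusted p 0.0688), or with siRNA 4 alone, at 0.29 (adjusted p 0.469, edgeR). With siRNA 2 alone, where 61.2% of all genes were called, HSPA1A was lower by 0.45 and not called (adjusted p 0.0803, edgeR). With siRNA 4 alone, where 31.2% were, HSPB8 at -0.40 and HSPH1 at 0.16 were not called.

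The rest of the chaperone network was followed through 66 further genes, of which 59 were tested. With senescence 20 were higher and 7 lower, 45.8% of those tested against 52.8% of all genes, and the median log2 fold change was 0.08. The other HSP70 and HSP110 genes had 7 higher and 1 lower of 10. HSPA4L, an HSP110 protein, rose by 1.20 ± 0.15 on the log2 scale. HYOU1, an HSP110 relative of the endoplasmic reticulum, rose by 0.84 ± 0.25. HYOU1 was at 37.2 CPM in its lowest DMSO_siNT library against a group median of 180 CPM, which adds to its rise. HSPA2, an HSP70 known from the testis, fell by 2.29 ± 0.29 on the log2 scale.

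Of 12 HSP40 genes tested, DNAJA3, the mitochondrial HSP40, rose by 0.51 ± 0.20, DNAJB9, of the endoplasmic reticulum, rose by 0.47 ± 0.17 and DNAJB4, a close relative of DNAJB1, fell by 1.72 ± 0.15. DNAJA3 was at 16.1 CPM in DMSO_siNT 4-2V against a group median of 53.8 CPM, which adds to its rise. Of the 4 HSP90 genes, TRAP1, the mitochondrial HSP90, rose by 0.80 ± 0.10. HSP90AA1, the inducible cytosolic HSP90, was lower by 1.13 ± 0.38, and only by 0.29 with an adjusted p of 0.0399 without DMSO_siNT 4-2V, in which it was at 11280 CPM against a group median of 1910.2 CPM. With siRNA 2 alone HSP90AA1 differed by -0.01 (adjusted p 0.923), and the call was also lost with only the 2 groups in the fit (adjusted p 0.0543, edgeR). The chaperonins, which fold proteins inside a ring, had 4 of 10 higher and none lower. Over all genes 52.8% were called, 23.9% higher and 28.9% lower. HSPD1 was at 0.45 ± 0.10 and CCT7 at 0.42 ± 0.09 on the log2 scale.

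Among 19 co-chaperones 5 rose and 3 fell with senescence, 42.1% against 52.8% of all genes called. FKBP4 and STIP1, which work with HSP90, rose by 0.71 ± 0.12 and 0.62 ± 0.25, while BAG2, an inhibitor of the ubiquitin ligase STUB1, fell by 1.50 ± 0.13 and FKBP5, an immunophilin of steroid receptor complexes, by 1.30 ± 0.22. In DMSO_siNT 4-2V STIP1 was at 49.4 CPM and FKBP4 at 65.3 CPM. The group medians were 235 and 99.9 CPM, so this library adds to both rises. The transcript of HSF1, the factor that induces the heat shock genes, rose by 0.50 ± 0.13 with an adjusted p of 0.00393 in edgeR. HSF1 was at 62.4 CPM in DMSO_siNT 4-2V against a group median of 117 CPM, which adds to its rise. The transcript of HSF2 fell by 1.07 ± 0.11 with an adjusted p of 1.84e-07 in edgeR. HSPB2, which shares the CRYAB locus, had 44 counts in DMSO_siNT, 2 in 4OHT_siNT and 2 in 4OHT_siSMARCA4. Its ratio of 24.02 between the first pair had an exact 95% interval of 6.27 to 205 for counting error only, and none of the 4 remaining small heat shock protein genes had enough counts for the fit.

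With knockdown 1 of the 59 genes was higher and 4 were lower, 8.47% against 10.6% of all genes. HSF2 rose by 0.45 ± 0.11, opposite to its change with senescence, and TRAP1 fell by 0.38 ± 0.10 and HSPA4L by 0.47 ± 0.15, each opposite to its own rise with senescence, in comparisons that share the 4OHT_siNT libraries. DNAJB5, an HSP40, fell by 0.65 ± 0.19 and BAG3, which links HSP70 and HSPB8 to autophagy, by 0.37 ± 0.11 on the log2 scale. Without DMSO_siNT 4-2V, 13 of the 59 were called, 7 higher and 6 lower, against 24.6% of all genes. The fits that left out 1 library called as few as 2, without 4OHT_siNT 2-1VM, 4OHT_siSMARCA4 2-3VM or the unlabelled library. Of all genes, these fits called 7.52%, 6.99% and 6.93%. Of the 59 genes tested, 17 were higher and 10 lower in 4OHT_siSMARCA4 than in DMSO_siNT, a share of 45.8% against 50.5% of all genes.

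**Figure D4:**
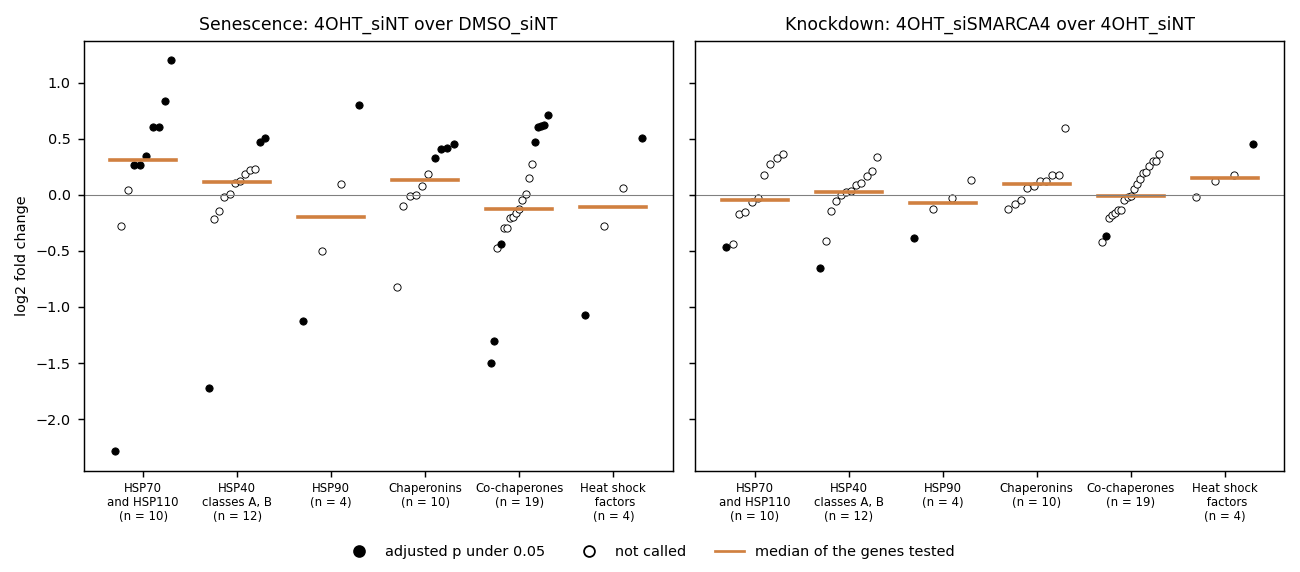
Points give the log2 fold change of each of the 59 tested chaperone genes by class, for 4OHT_siNT over DMSO_siNT on the left and 4OHT_siSMARCA4 over 4OHT_siNT on the right, with filled points past an adjusted p of 0.05 and a line at the median of each class. On the left HSPA4L stands highest at 1.20 and HSPA2 lowest at -2.29, and on the right 5 points are filled, from DNAJB5 at -0.65 to HSF2 at 0.45.

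The genes most like each member were found by Pearson's r of their deviations from the group means of log2 CPM over the 18 libraries, which share depth and the library DMSO_siNT 4-2V. For HSPB6 they were PTDSS1 at r = 0.95, TMEM8B at 0.93 and BGN at 0.90, and the first pair also stood among the top 3 without DMSO_siNT 4-2V, at 0.94 and 0.92. For HSPB1 they were PHLDA2 at 0.98, CIB1 at 0.98 and ARPC1A at 0.98, and without that library CSNK2B at 0.94, TIMM17B at 0.93 and PHLDA2 at 0.93. CRYAB was nearest to SLC9A3 at 0.71 and to BCL2L2 and KDM7A at 0.70 each, and without that library to OTUD5 at 0.83. Its top 3 all changed without that library. CRYAB had at most 10 counts in any library given 4OHT, so its deviations there are mostly counting error. For no member was the highest r set against what so many genes give by chance. HSPB8 was nearest to PLA2G15 at 0.90, ATP6AP1 at 0.90 and HMGA2 at 0.88.

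HSPA1A was nearest to BANP at 0.91, COX20 at 0.90 and HSD17B14 at 0.90, and HSPA1B to PITHD1, EIF1 and CCDC167 at 0.93 each. HSPH1 was nearest to VDR at 0.90, ZBTB1 at 0.87 and SOCS5 at 0.86, and HSPA8 to BCAR3 at 0.94, FBXO10 at 0.93 and RAB7A at 0.93. DNAJB1 was nearest to TBC1D2 at 0.97, CIDECP1 at 0.97 and MARCHF4 at 0.96 over all libraries, and to the co-chaperone gene BAG3 at 0.90 without DMSO_siNT 4-2V. The nearest genes of HSPB8, HSPA1A, HSPA1B, HSPH1 and HSPA8 were others without that library as well.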

How the data were processed

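The deposited values were raw counts per gene and sequencing lane that the authors did not normalize, for 36 columns and 28266 gene symbols. Per the labels and the submitters' processing notes, libraries were made from polyadenylated RNA with a directional kit, and reads were aligned to hg38 with STAR 2.7.8a, and DESeq2 1.36.0 was used. The counting program and its strand setting are not given in the sources used here. The 2 lanes of each library were summed, which gave 18 libraries. Of 29 labelled samples, 17 matched a column and 12 were not analysed here. A further column, named 4OHT_siSMARCA4 with siRNA 2 and set 1VM, matched no label and was used as the unlabelled library. Totals ranged from 9657309 to 18039313 counts. Lanes of a library differed with a chi-square per degree of freedom of 1.19 to 1.27 and the 45 pairs of libraries within groups with 2.33 to 315, so none was treated as a duplicate.

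Genes were filtered with filterByExpr (minimum count 10), which left 13136 genes with 99.91% of the counts, scaled with TMM and tested two-sided by quasi-likelihood in edgeR 4.0.16 (R 4.3.3). The 18 libraries entered 1 fit of group means. The common biological coefficient of variation was 23.3%. P-values were adjusted by Benjamini-Hochberg over all genes tested, and a gene was called under 0.05. Standard errors came from the F statistic. The siRNAs were compared among 13659 genes and the set names among 13887. Levels are CPM on the TMM scale, per kilobase of the MANE transcript where genes are compared. Log2 CPM had a prior count of 2. Ratios of summed counts have 95% exact conditional binomial intervals. No label says that libraries came from separate cultures, so p-values measure the spread between these libraries, which may be technical.

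The members and lists were chosen with earlier results of these data known. Genes named beside the members were SMARCA4, HSF1, HSF2, HSPB2, up to 2 genes with the largest rise and 2 with the largest fall per list and contrast among called genes with a mean log2 CPM above 1, and the 3 genes most like each member. Libraries of different groups with the same set name correlated in their deviations at -0.29 to 0.30 over 15 pairs (median 0.04), so set names were not treated as pairs. Alternatives covered the scaling, DESeq2 1.42.0, the filter, the set name as a block, VM sets, each siRNA, the groups in the fit, the summed HSPA1 pair and leaving out each library. Counting the unlabelled library as VM and the similarity lists without DMSO_siNT 4-2V were chosen after seeing the data. The steps were tested on simulated data. Promoters were searched in RefSeq windows of 250 bases before to 50 after the start.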

Additional observations from a re-analysis of the deposited data

Results flagged for a closer look

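In 27 pairs of a gene and a group, the gap of the highest or lowest of 6 libraries to its neighbour on the log2 CPM scale was divided by the range of the group and set against Dixon's 95% critical value. Chance passes it in about 1 in 20 groups, and 3 pairs passed. DNAJB1 in DMSO_siNT had a lowest library, 4-2V, at 92.03 CPM with the next at 158 CPM, a ratio of 0.684. HSPA8 in DMSO_siNT was lowest in the same library, at 1018 CPM with the next at 1639 CPM, a ratio of 0.648. HSPA1A in 4OHT_siNT was highest in 4-3VM at 12.3 CPM with the next at 11.2 CPM, a ratio of 0.688 within a narrow range.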

How the results depend on the processing

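The number of the 10 genes called with senescence, 8 as reported, was 5 with siRNA 4 alone (35.6% of all genes called, against 52.8%) and 8 to 9 when 1 library was left out. With the set name as a replicate block, HSPA8 (adjusted p 0.307) and HSPH1 (adjusted p 0.223) lost their calls with senescence. Knockdown, with 2 calls, gave 1 in the replicate block, where CRYAB was lost (adjusted p 0.626), 4 with siRNA 2 alone, 0 with siRNA 4 alone, 4 in VM sets with the unlabelled library, 2 (HSPB6 and DNAJB1, with CRYAB not tested) with only the 2 groups in the fit and 1 to 2 when 1 library was left out. Of all genes, 10.6% were called with knockdown as reported, 1.77% in the block, 25.7% with siRNA 2 alone, 0.0303% with siRNA 4 alone, 21% in VM sets, 30.4% in VM sets with the unlabelled library, 26.9% with only the 2 groups, 14.7% in DESeq2 and 5.34% when all genes with at least 1 count were tested. Against growing cells 4OHT_siSMARCA4 gave 7 to 9 calls when 1 library was left out, and HSPH1 lost its call in the replicate block (adjusted p 0.137). The replicate block changed no other call of the 10 genes. With 1 library left out, 49% to 58.3% of all genes were called with senescence and 6.93% to 24.6% with knockdown. Against growing cells the share was 47.6% to 59.1%.

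Between siRNAs in DMSO_siNT, with 0 calls as reported, HSPB1 and HSPA1B made 2 calls in DESeq2 and 2 when all genes with at least 1 count were tested, and 0 to 2 were called when 1 library was left out. The difference between siRNAs in the effect of senescence gave 0 to 1. VM against V sets, with 0 calls in each group, gave 1 call in 4OHT_siSMARCA4 and 2 in DMSO_siNT in DESeq2, and 0 to 2 in both groups when 1 library was left out. The share of all genes called was not computed for these alternatives.

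Of the 59 other chaperone genes, the 27 calls with senescence were 12 in the replicate block (32.7% of all genes), 13 with siRNA 4 alone (35.6%) and 22 to 32 when 1 library was left out. The 5 calls with knockdown, to be read against the shares above, were 2 when all genes with at least 1 count were tested, 8 in DESeq2, 12 with only the 2 groups in the fit, 0 in the replicate block, 13 with siRNA 2 alone, 0 with siRNA 4 alone, 10 in VM sets, 17 in VM sets with the unlabelled library and 2 to 13 when 1 library was left out. The 27 calls against growing cells were 15 in the replicate block (35.1% of all genes, against 50.5% as reported), 46 with siRNA 2 alone (61.2%), 9 with siRNA 4 alone (31.2%) and 22 to 32 when 1 library was left out. HSP90AA1 lost its call with senescence in the replicate block (adjusted p 0.337). In 4OHT_siSMARCA4 over DMSO_siNT its called difference of -0.99 turned to 0.10 with siRNA 2 alone (adjusted p 0.297). Without DMSO_siNT 4-2V it was -0.17 and not called (adjusted p 0.233, edgeR). Counts with 1 library left out are to be read against the shares given above for those fits. Fits of 1 siRNA or of VM sets hold fewer libraries. For the other changes the cause was not tested. Counts limit CRYAB and HSPB7 in senescent cells, where changes below their few counts were not detectable at this depth.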
